A study of Danio rerio with 8 samples.

Results

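Suppressor of cytokine signaling (Socs) genes and the kinases and transcription factor they act on were followed in zebrafish embryos exposed to the KT09 plant extract. The set holds 9 genes, taken by symbol from a deposited table of 32520 genes: the Janus kinase genes jak1, jak2a and jak2b, the transcription factor gene stat3, and the Socs genes socs1a, socs2, socs3a, socs3b and socs4. Each symbol stood for 1 gene in the table, and all 9 genes were found. They were selected on the treated and control means of this same comparison, whose values were already known, so their levels are a description and were not tested.

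RNA was sequenced from whole AB strain embryos with their yolk, in 4 treated pools and 4 control pools of 75 embryos. Treated pools received KT09, an ethanol extract of Mahonia bealei stems, at 100 µg/ml, and control pools were kept in medium with 0.5% DMSO. The study dissolved its dried extracts in DMSO, and the labels give no DMSO level for the treated pools. Exposure started at 2 hours post fertilization (hpf), in wells of 25 embryos, and the labels give 8 hpf for the collection. Epiboly, the spreading of the cell sheet over the yolk, was delayed at this dose in the study, so effects of the extract and of an earlier stage cannot be told apart. The library names of replicate 4 in both groups carry the code of the other group, whereas their titles and treatment fields give the groups used here.

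Cytokines such as the interleukin 6 family bind receptors that carry Janus kinases on their inner side. The kinases phosphorylate the receptor and the Stat proteins, which then enter the nucleus and switch on target genes. Socs genes are often among these targets, and their proteins shut the signal off by blocking the kinases or by marking pathway proteins for breakdown through a ubiquitin ligase that docks on the Socs box. In the zebrafish gastrula, Stat3 is known for its part in the cell movements of convergence and extension.

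Levels are normalized reads, the counts of a gene divided by the size factor of its pool. The table lists only the authors' means over the 4 pools of a group. The values of single pools were rebuilt from these means, which are sums of whole reads times a step per pool inferred from the same table, and 1 set of whole counts was found for every member in each group. Pools are called a to d within a group, in order of their size factor from the deepest to the shallowest. These letters are not the replicate numbers of the labels, and the same letter pairs nothing between the groups. No transcript lengths were used, so levels are compared between groups and not between genes.

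Size factors ran from 0.980 to 1.16 in treated pools and from 0.820 to 1.14 in control pools. The genes with pools rebuilt held 2065531 to 2929983 reads per pool. Across the 12535 of these genes with an overall mean of 10 or more, the correlation of log values was 0.921 to 0.964 among treated pools, 0.926 to 0.971 among control pools and 0.820 to 0.932 between the groups. Of 8 pools, 8 were most alike a pool of their own group. The highest value between the groups, of treated pool b and control pool d, was above the lowest value within either group. These correlations do not check which labelled sample entered which mean. Of the 15888 genes with an overall mean of 10 or more, 14.1% had a treated mean over 1.5 times the control mean and 15.5% a treated mean lower by that fold. Of the 12535 such genes with pools rebuilt, all treated pools lay above all control pools in 14.2% and below them in 18.3%, and the groups overlapped in 67.5%. Where shares of all genes are given below, 14.2%, 18.3% and 67.5% refer to these 12535 genes. Shares of 14.1% and 15.5% refer to the 15888 genes.

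Among the 9 genes, socs4 had the highest ratio of treated over control means. The median log2 ratio of treated over control means was -0.00 over the 8 members with an overall mean of 10 or more, against 0.01 over all such genes. One of these 8 members, socs4, was over 1.5-fold higher, where 14.1% of all genes were, and 1, socs3a, was over 1.5-fold lower, where 15.5% were. The treated pools of socs4 lay above all control pools, the case for 14.2% of genes, or for 8.73% together with a ratio over 1.5. The other 7 of the 8 members overlapped, against 67.5% of genes. Since the genes were selected on this contrast, nothing is read from these counts. The remaining member, socs2, had an overall mean of 9.64, just under the minimum.

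**Figure D1:**
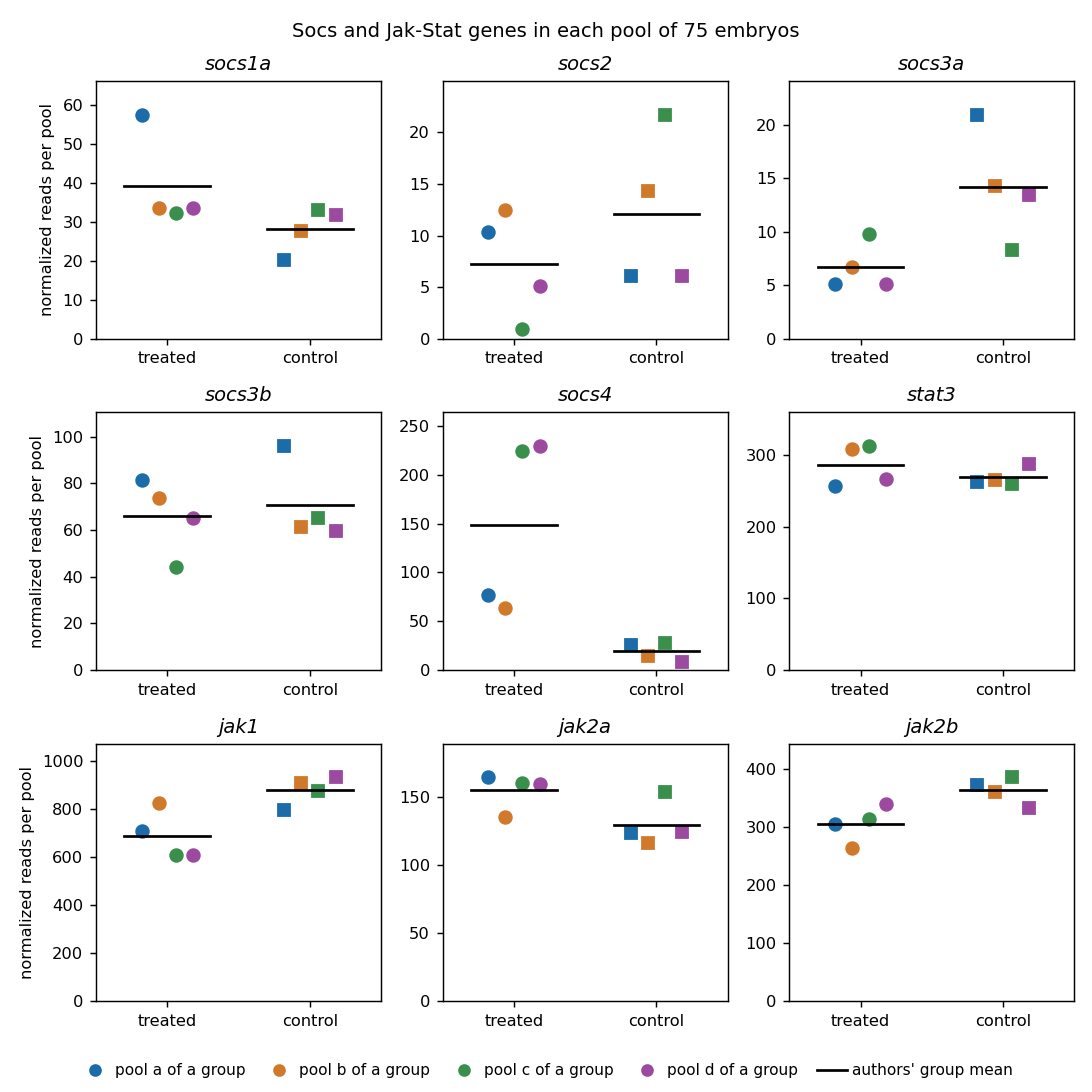
Normalized reads of the 9 genes in each pool of 75 embryos, treated pools left of control pools, with a separate vertical axis from 0 for each gene. Points are single pools rebuilt from the authors' means, coloured by letter, which pairs nothing between groups, and lines are the authors' group means. The groups are apart in socs4 only, with treated pools at 63.2 to 229.5 and control pools at 8.54 to 27.9 normalized reads.

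Jak1, a kinase shared by the receptors of many cytokines, is the first of the 3 Janus kinase genes in the set. For jak1 (ENSDARG00000020625), treated pools a to d had 708.5, 824.9, 608.8 and 610.1 normalized reads, against 795.8, 911.9, 876.4 and 934.4 in control pools a to d. Treated pools a, c and d lay below every control pool, and treated pool b lay within the control range. The authors' means were 688 in treated and 879.6 in control embryos, a log2 ratio of -0.35. At this level the rebuilt pool values are less certain than for the other members, since means moved at random were also accepted more often. The 95% interval of the log2 ratio for counting error alone, which leaves out the spread between pools, was -0.43 to -0.28.

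The fish carry a pair of Jak2 genes, whose mammalian counterpart relays signals of growth factors and blood cell cytokines. For jak2a (ENSDARG00000104808), treated pools a to d had 164.9, 135.9, 160.5 and 160.2 normalized reads, against 124.0, 116.5, 154.2 and 124.4 in control pools a to d. Treated pools a, c and d were above the highest control pool, and treated pool b was within the control range. The authors' means of jak2a were 155 in treated and 129.8 in control embryos, a log2 ratio of 0.26.

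For jak2b (ENSDARG00000018882), treated pools a to d had 305.7, 263.2, 314.2 and 339.7 normalized reads, against 373.0, 359.9, 386.0 and 333.0 in control pools a to d. Here treated pools a, b and c were below the lowest control pool, while treated pool d was above it. The authors' means of jak2b were 305.7 in treated and 363 in control embryos, a log2 ratio of -0.25. The ratios of the gene pair thus had opposite signs. Of the reads of both genes, jak2a took 35.0%, 34.1%, 33.8% and 32.0% in treated pools a to d, against 25.0%, 24.5%, 28.5% and 27.2% in control pools a to d. These shares did not overlap between the groups, and being formed from the values that led to the choice of the genes they were not tested. The share of socs5a in its pair with socs5b, 51.1% to 61.8% in treated and 63.6% to 67.1% in control pools, did not overlap either. Nor did that of socs4 with socs9, at 27.8% to 61.2% and 4.29% to 17.2%, while the socs3 pair overlapped. No background was formed from other gene pairs.

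The transcription factor gene stat3 (ENSDARG00000022712) lay at about the same level in both groups. Treated pools a to d had 257.6, 309.1, 313.2 and 266.3 normalized reads, against 262.9, 265.8, 259.7 and 287.9 in control pools a to d. Treated pools b and c were above every control pool and treated pool a was below every one of them. The authors' means of stat3 were 286.6 in treated and 269.1 in control embryos, a log2 ratio of 0.09, smaller than the spread among the treated pools.

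The mammalian counterpart of Socs4 is best known for acting on the epidermal growth factor receptor. For socs4 (ENSDARG00000078509), treated pools a to d had 76.4, 63.2, 224 and 229.5 normalized reads, against 25.3, 14.3, 27.9 and 8.54 in control pools a to d. Each treated pool was above each control pool, but the treated pools were far apart, with the highest 3.63 times the lowest. They fell into a lower pair, a and b, and a higher pair, c and d, which the treated mean averages. Pools a and b were also most alike each other in the correlation over genes, at 0.946, and so were c and d, at 0.964. The authors' means were 148 in treated and 19.0 in control embryos, a ratio of 7.79 and a log2 ratio of 2.96. The interval for counting error alone was 2.62 to 3.33. Before scaling, the gene had 609 reads in treated and 77 reads in control pools. Of the 15888 genes with an overall mean of 10 or more, 30 had a higher ratio, or 0.189%. Because the set was selected on this contrast, the rank is a description only. Without any 1 pool the log2 ratio of socs4 lay between 2.67 and 3.21.

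**Figure D2:**
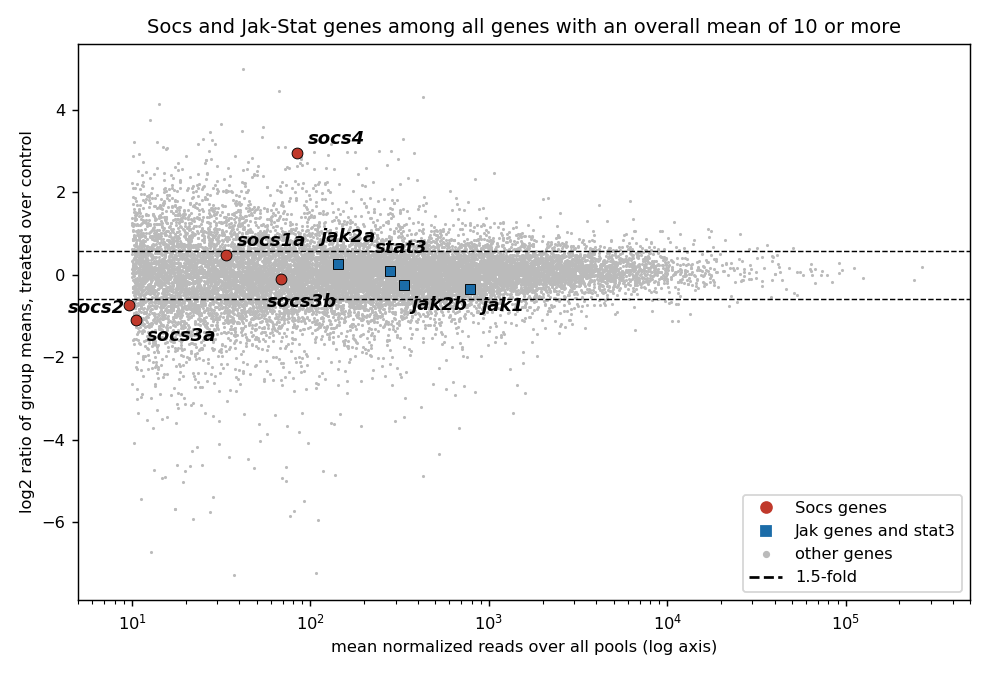
Log2 ratio of the authors' treated over control means (vertical) against the overall mean of normalized reads (horizontal, log axis) for genes with an overall mean of 10 or more, with the 9 genes marked and socs2 just under that mean. Dashed lines are 1.5-fold, genes at 0 in a group are not drawn, and socs4 lies at 2.96 and socs3a at -1.09.

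Genes whose transcripts the oocyte supplies to the egg were also higher in the treated group, and their part in the socs4 value was not tested. Reads of whole embryos do not separate transcripts left from the oocyte from those that the embryo made. Of 15 such genes with an overall mean of 10 or more, 13 were over 1.5-fold higher, against 14.1% of all genes, and 0 lower, against 15.5%. The summed level of the 12 genes with pools was 1563 to 1693 in treated and 711 to 1043 in control pools. In treated pools a to d this sum was 1567, 1563, 1693 and 1599, most of it from nanog and zp3b. Rebuilt pool values of nanog are less certain, as its treated mean lay between 600 and 1000. Genes of the list, named after their values were seen, differed in their order of pools. In treated pools a to d, btg4 had 12.9, 16.3, 33.3 and 30.6 normalized reads and npm2a had 24.0, 27.8, 54.8 and 33.7. Both were highest in pools c and d, as socs4 was, and so were zar1, org, gdf9, cldnd and zp3b. Their pools lay closer together than those of socs4, and pool a was little below pool c in some. Org had 94.5, 87.1, 100.8 and 107.1 normalized reads in treated pools a to d, and zp3b had 332.4, 278.5, 345.5 and 378.5. The share of all genes highest in pools c and d was not formed, so nothing is read from this order. The other listed genes with pools had other orders, with bmp15 and nanog highest in pool b. Buc, with 108.2, 33.5, 43.1 and 32.6, was highest in pool a. Zar1l had 25.8, 23.0, 17.6 and 30.6, lowest in pool c, and dazl had 44.7, 67.9, 65.6 and 67.3, highest in pool b. In bulk samples such as these, fewer cells of a type and less RNA per cell cannot be told apart.

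The socs3 pair encodes inhibitors that bind the interleukin 6 receptor chain and the Jak kinases and are induced by Stat3 in many vertebrate tissues. For socs3a (ENSDARG00000025428), treated pools a to d had 5.15, 6.70, 9.79 and 5.10 normalized reads, against 20.97, 14.3, 8.28 and 13.4 in control pools a to d. Treated pools a, b and d were below the lowest control pool, and treated pool c was above it. The authors' means were 6.69 in treated and 14.2 in control embryos, a ratio of control over treated of 2.13 and a log2 ratio of -1.09. These values rest on 28 reads in treated and 57 reads in control pools, and the interval for counting error alone was -1.80 to -0.39.

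For socs3b (ENSDARG00000026611), treated pools a to d had 81.6, 73.7, 44.0 and 65.3 normalized reads, against 96.1, 61.3, 65.2 and 59.8 in control pools a to d. The lowest value of socs3b was in treated pool c and the highest in control pool a. The authors' means of socs3b were 66.2 in treated and 70.6 in control embryos, a log2 ratio of -0.09. Without control pool a the log2 ratio of socs3b was 0.09, and without treated pool c it was 0.06. The share of socs3a in the reads of the pair was 5.94% to 18.2% in treated and 11.3% to 18.9% in control pools, and the groups overlapped.

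The product of socs1a belongs to the inhibitors that block the catalytic site of Jak kinases. For socs1a (ENSDARG00000038095), treated pools a to d had 57.5, 33.5, 32.3 and 33.7 normalized reads, against 20.1, 27.6, 33.1 and 31.7 in control pools a to d. Treated pool a was far above the rest, and the other treated pools were close to the upper control pools. The authors' means of socs1a were 39.2 in treated and 28.1 in control embryos, a log2 ratio of 0.48 with a counting interval of 0.12 to 0.84. Without treated pool a the log2 ratio was 0.24.

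Socs2 is known in mammals as a brake on growth hormone signaling. For socs2 (ENSDARG00000045557), treated pools a to d had 10.3, 12.4, 0.979 and 5.10 normalized reads, against 6.12, 14.3, 21.7 and 6.10 in control pools a to d. The values of both groups were low and scattered, and treated pool c held 1 read. The authors' means of socs2 were 7.21 in treated and 12.1 in control embryos, a log2 ratio of -0.74, from 31 reads in treated and 47 reads in control pools. The log2 ratio was -0.38 without treated pool c and -0.30 without control pool c.

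**Figure D3:**
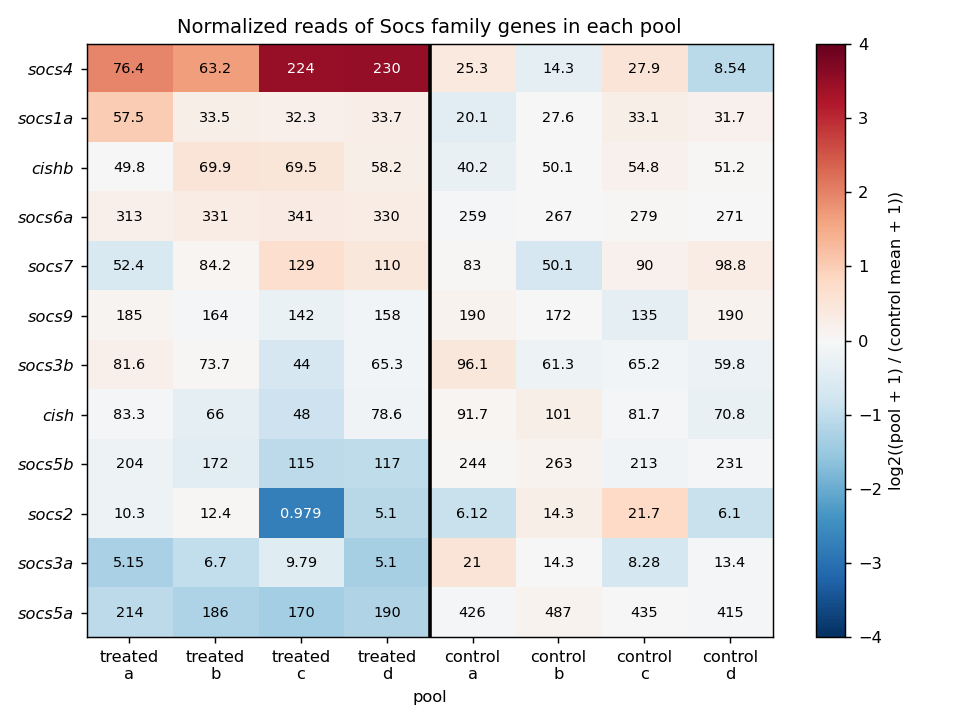
Normalized reads of 12 Socs family genes (rows) in each treated pool (left) and control pool (right), printed in the cells and coloured by the log2 of pool plus 1 over the authors' control mean plus 1. Socs4 is at the top with 63.2 to 229.5 in treated pools and socs5a at the bottom with 170.3 to 213.8, and socs1b, at 0, and socs6b, with pools not rebuilt, are not shown.

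Other genes of the Socs family were taken from a list of 10 symbols, of which 9 were found and 8 had an overall mean of 10 or more. None was over 1.5-fold higher, against 14.1% of all genes, and 2 were over 1.5-fold lower, against 15.5%. These were the pair socs5a and socs5b, whose mammalian counterpart acts, like Socs4, on the epidermal growth factor receptor. Socs5a had 213.8, 185.7, 170.3 and 189.8 normalized reads in treated pools a to d, against 426.3, 486.6, 434.6 and 414.8 in control pools a to d. The lowest control pool of socs5a was far above the highest treated pool, and the log2 ratio of the authors' means was -1.21.

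Socs5b had 204.4, 172.3, 115.5 and 117.3 normalized reads in treated pools a to d, against 243.7, 262.7, 213.2 and 230.6 in control pools a to d, a log2 ratio of -0.64. Of the 7 listed family genes with pools, all treated pools were below all control pools in the 2 socs5 genes, against 18.3% of all genes. Socs6a was the 1 other family gene besides socs4 with all treated pools above all control pools, the case for 14.2% of all genes. Its log2 ratio was 0.29. The groups overlapped in socs7, socs9, cish and cishb, with log2 ratios of 0.22, -0.08, -0.32 and 0.33. Socs6b had authors' means of 1064 in treated and 890.2 in control embryos, and socs1b, the paralog of socs1a, was listed at 0 in both groups.

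Of the other Jak and Stat genes, 7 of 9 had an overall mean of 10 or more, with 0 over 1.5-fold higher and 3 over 1.5-fold lower. Of all genes, 14.1% were higher and 15.5% lower by that fold. Of the 7 with pools, all treated pools lay below all control pools in 2, against 18.3% of all genes. They lay above in 1, against 14.2%. Stat4, which relays interleukin 12 signals in mammals, had 2.94 to 9.45 normalized reads in treated and 12.4 to 20.7 in control pools, with no overlap. Stat6, which relays interleukin 4 and interleukin 13 signals in mammals, had 92.0 to 128 in treated and 161 to 222.8 in control pools, also with no overlap. Stat2, which acts in interferon signaling, had a log2 ratio of -0.74, but its pools overlapped and ran from 6.01 to 50.9 in treated and from 17.4 to 90.9 in control pools. Stat5b, named after its values were seen, had 382.6 to 420.9 in treated and 325 to 367.3 in control pools, all treated pools above all control pools. The kinase gene tyk2 had authors' means of 14.4 in treated and 15.8 in control embryos, and jak3 was below 1 in both, at 0.744 and 0.259.

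Inhibitors of other kinds had a median log2 ratio of 0.31, against 0.01 over all genes. Medians of the other pathway lists ran from -0.34 in the other Jak and Stat genes to 0.59 in the cytokine ligands. Of 14 Pias, phosphatase and related genes with an overall mean of 10 or more, 2 were over 1.5-fold higher, against 14.1% of all genes. These were pias4b at a log2 ratio of 0.71 and ptpn11b at 0.63, and both overlapped between the groups. All treated pools lay above all control pools in 3 of the 10 genes with pools, against 14.2% of all genes. These lay within 1.5-fold and were named after their values were seen: pias1b at a log2 ratio of 0.53, ptpn2a at 0.57 and ptpn2b at 0.15. One was over 1.5-fold lower, against 15.5% of all genes. This was cbl, which encodes a ubiquitin ligase of activated receptors, at a log2 ratio of -0.62 and with no overlap. Of 6 genes for the ligase that docks on the Socs box, 1 was lower by that fold, against 15.5% of all genes. This was rnf7, which encodes its RING subunit, with 212.2 to 313.5 normalized reads in treated and 375.7 to 448.1 in control pools. Of the 5 with pools, all treated pools lay below all control pools in 2, rnf7 and eloca, against 18.3% of all genes. They lay above in 1, rbx1, against 14.2%, with 620 to 680.5 in treated and 455.1 to 506.2 in control pools. Eloca and rbx1 were within 1.5-fold and named after their values were seen.

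**Figure D4:**
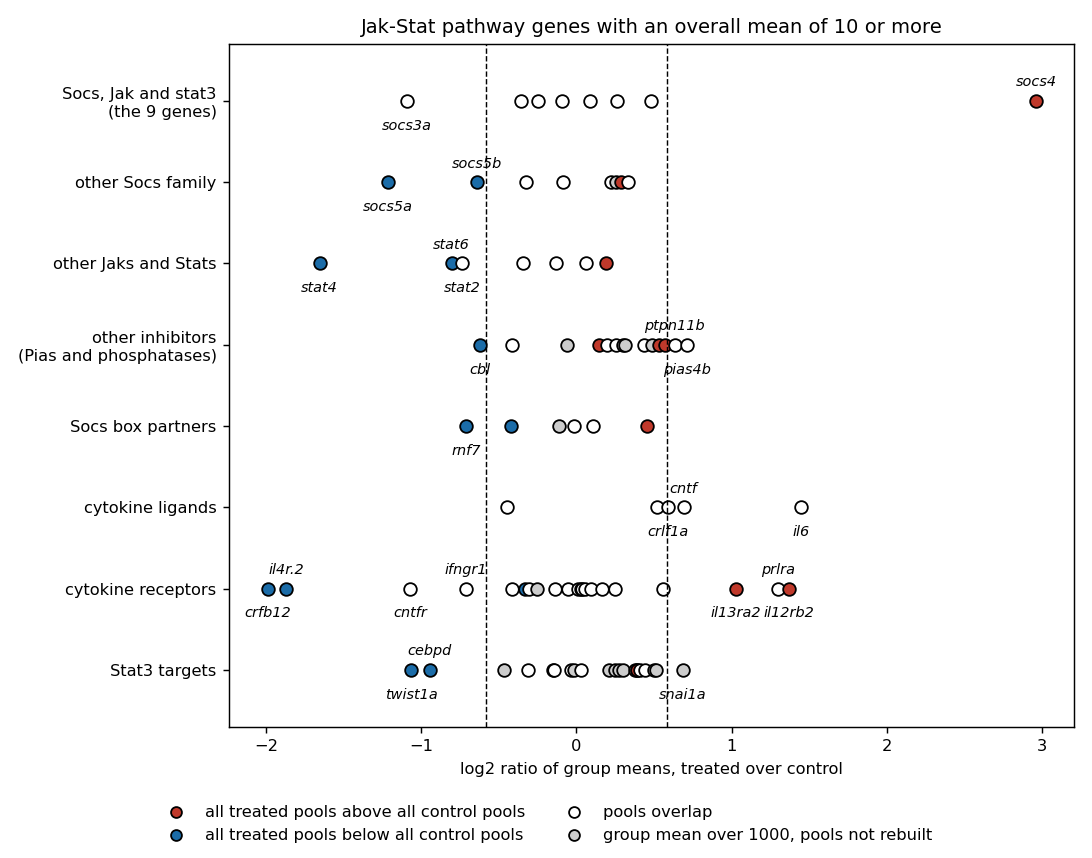
Log2 ratio of the authors' treated over control means (horizontal) for genes of the Jak-Stat pathway with an overall mean of 10 or more, one row per list, with dashed lines at 1.5-fold. Red and blue points have all treated pools above or below all control pools, white points overlap and grey points have a group mean over 1000 with pools not rebuilt, and socs4 at 2.96 lies farthest to the right.

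At the start of the pathway, 27 of 32 ligand genes found had an overall mean under 10. Of the other 5, 3 were over 1.5-fold higher, against 14.1% of all genes, and 0 lower, against 15.5%. The groups overlapped in all 5, against 67.5% of all genes. Il6, the ligand that gives its name to the cytokine family, had 73.0, 42.1, 62.6 and 96.9 normalized reads in treated pools a to d, against 19.2, 19.4, 48.6 and 13.4 in control pools a to d. Treated pools a, c and d of il6 were above every control pool, treated pool b was below control pool c, and the log2 ratio was 1.45. Cntf, a ligand of the same family, had a log2 ratio of 0.69 and crlf1a, a partner of such ligands, of 0.59.

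Receptor genes lay on both sides. Of 21 with an overall mean of 10 or more, 3 were over 1.5-fold higher, against 14.1% of all genes, and 4 were over 1.5-fold lower, against 15.5%. The groups overlapped in 15 of 20 with pools, against 67.5% of all genes. Il12rb2, an interleukin 12 receptor chain, had 22.3 to 61.7 normalized reads in treated and 12.3 to 20.1 in control pools, and il13ra2, which binds interleukin 13 in mammals, had 27.8 to 44.0 in treated and 15.7 to 21.7 in control pools. Prlra, a prolactin receptor gene, had 14.6 to 50.7 normalized reads in treated and 5.11 to 23.2 in control pools, which overlapped.

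On the lower side, crfb12, a gene of the class II cytokine receptor family, had 8.81 to 44.7 normalized reads in treated and 69.5 to 123.7 in control pools, with no overlap. Il4r.2 had 5.15 to 7.14 normalized reads in treated and 13.5 to 31.7 in control pools, with no overlap. Cntfr and ifngr1 had log2 ratios of -1.07 and -0.71 and overlapped. The signal chain gene il6st, named here after its values were seen, had authors' means of 216 in treated and 287.7 in control embryos, and its groups overlapped.

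At the end of the pathway, 21 genes listed as Stat3 targets had an overall mean of 10 or more. Whether Stat3 acts on them in these embryos was not tested. One was over 1.5-fold higher, snai1a, which encodes a repressor of cadherin genes, with authors' means of 7311 in treated and 4541 in control embryos. Both genes that were lower by over 1.5-fold had no overlap. Twist1a, a transcription factor gene of mesenchyme, had 156 to 268.8 normalized reads in treated and 347.7 to 455.1 in control pools. Cebpd, an acute phase regulator, had 31.6 to 53.6 in treated and 61.0 to 109.2 in control pools. Of the 12 targets with pools, all treated pools lay below all control pools in these 2, against 18.3% of all genes. They lay above in 1, mcl1a, against 14.2%. Mcl1a, named after its values were seen, had 701.6 to 846 in treated and 550 to 658.1 in control pools, at a level where rebuilt values are less certain. Over all pathway lists apart from the 9 genes, 9 of 82 genes were over 1.5-fold higher, against 14.1% of all genes, and 13 of 82 were over 1.5-fold lower, against 15.5%.

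Markers of other cells the pools could hold were read beside these values, and their part in them was not tested. Of all genes, 14.1% were over 1.5-fold higher and 15.5% over 1.5-fold lower. Of 14 blood and immune cell genes, 4 had an overall mean of 10 or more, with 1 over 1.5-fold higher and 0 lower. The higher gene was coro1a, an actin regulator of leukocytes, with 9.57 to 30.3 normalized reads in treated and 6.10 to 7.16 in control pools and no overlap. The summed level of the 11 with pools was 308 to 371 in treated and 184 to 253.5 in control pools, and without lmo2, which carried most of it, 26.8 to 69.4 in treated and 24.8 to 39.0 in control pools. Lyz was at 0 in both groups, and the leukocyte marker ptprc had authors' means of 1.66 in treated and 0.816 in control embryos. Of 9 yolk syncytial layer genes with an overall mean of 10 or more, 1 was higher and 1 was lower by over 1.5-fold, and the summed level of the 6 with pools was 703 to 879 in treated and 704 to 789 in control pools. Of 11 enveloping layer genes, none with pools rebuilt, 0 were higher and 1 was lower by that fold. Of 16 germ layer genes of the gastrula, 7 were over 1.5-fold higher and 2 over 1.5-fold lower, with a summed level of the 5 with pools of 2672 to 3026 in treated and 2937 to 3442 in control pools. The order of these sums rested on tp63, which had 101 to 182 in treated and 809 to 1229.9 in control pools, and without it the sum was 2490 to 2906 in treated and 2129 to 2212 in control pools. Tp63, noto, gsc, sox17 and the yolk syncytial layer gene mxtx1 had a group mean between 600 and 1000. Rebuilt pool values, and the sums that hold them, are less certain there.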

How the data were processed

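RNA-seq values came from 1 table of 32520 genes. The authors mapped and counted stranded mRNA libraries against GRCz11 with Ensembl release 103, in nf-core rnaseq 3.0, and used DESeq2, whose version is not given in the sources used here. The deposited group means are a normalized signal: the authors scaled each pool's counts by its size factor and gave the mean of the treated, the control or all pools. The 5 columns with the authors' own fold change, its error, statistic and p-values were not used.

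Each mean is a sum of whole counts times a step per pool. The 4 steps of each group were read from the most frequent lowest means, and whole counts were found by lattice reduction for all genes with both group means of at most 1000, which left out 3353 genes. The method was checked on simulated data and on means moved at random, which it accepted more often at higher levels, most of all at means of 600 to 1000. For the members, a search of all counts from 0.3 to 2.5 times the mean, with no lower limit where the mean was low, gave 1 solution. No such search was made for the other genes, whose pool values are less certain at means of 600 to 1000. The counts may be rounded estimates of the pipeline. Rebuilt pools could not be tied to labelled replicates, so they give ranges and overlap only, and the count models planned were not run.

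Members and gene lists were chosen with earlier results of these data known. The lists held 220 symbols, of which 209 were found by symbol, 1 by a RefSeq synonym and 10 not at all. Named genes were the 9 members, their family, and up to 4 genes per list and direction with the largest log2 ratio past 1.5-fold at an overall mean of 10 or more. Intervals are exact Clopper-Pearson intervals of the treated share of the summed normalized reads, at 95%, and cover counting error only. Pseudocounts, scalings, fold and mean thresholds, and leaving out each rebuilt pool were tried as alternatives. Computations ran in Python 3.11.15 with numpy 2.4.6, pandas 2.3.3 and scipy 1.17.1, and plots in matplotlib 3.10.9.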

Additional observations from a re-analysis of the deposited data

Results flagged for a closer look

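Of 64 groups of 4 pools looked at for the members and named genes, 5 had a pool far from the other 3, where the gap to the nearest pool over the whole range passed Dixon's 95% critical value for 4 samples. Chance alone gives about 1 in 20 such groups. Treated pool a of socs1a had 57.5 normalized reads, against 33.7 in the nearest treated pool. Treated pool b of jak2a had 135.9, against 160.2 in the nearest treated pool. Control pool a of socs3b had 96.1, against 65.2 in the nearest control pool. One control pool of pias4b had 48.8, against 15.5 in the nearest, and control pool c of il6 had 48.6, against 19.4 in the nearest.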

How the results depend on the processing

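The log2 ratio of every member moved by less than the spread of its pools under the pseudocounts and scalings tried. The same held without any 1 rebuilt pool, a setting chosen after seeing the data. That spread, taken over both groups, was 1.67 log2 units in socs2 and 1.25 in socs4, so the rule let large moves pass. With a pseudocount of 10 the log2 ratio of socs3a went from -1.09 to -0.54. Each symbol had 1 row, so the choice of row could change nothing. Without 1 pool the log2 ratios ran from 2.67 to 3.21 in socs4, from -1.33 to -0.84 in socs3a, from -1.14 to -0.30 in socs2, from 0.24 to 0.57 in socs1a and from -0.21 to 0.09 in socs3b, where the sign turned. They ran from -0.45 to -0.30 in jak1, from 0.21 to 0.35 in jak2a, from -0.30 to -0.18 in jak2b and from 0.05 to 0.14 in stat3. Scaling to equal totals moved all log2 ratios by -0.07 and to a median of 0 by -0.02.

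Counts past the fold depended on the thresholds. Members higher by over the fold were 2 at a fold of 1.3 and 0 at a mean of 100 or more, and members lower were 0 with a pseudocount of 10, 2 at a mean of 1 or more, 0 at a mean of 100 or more and 2 with no filter. Pathway genes higher were 4 at a fold of 2, 22 at a fold of 1.3, 14 at a mean of 1 or more, 1 at a mean of 100 or more and 21 with no filter, against 9. Pathway genes lower were 6 at a fold of 2, 24 at a mean of 1 or more, 6 at a mean of 100 or more and 31 with no filter, against 13. All genes higher were 978, 3615, 4265, 934 and 6107, and all genes lower 1096, 3767, 4116, 994 and 5671, at a fold of 2, a fold of 1.3, a mean of 1 or more, a mean of 100 or more and no filter, against 2243 and 2470. With a pseudocount of 10, all genes lower were 1951. For all genes, the fold and pseudocount settings count among 15888 genes, and no filter leaves 26166 with a mean above 0. Totals at a mean of 1 or more and of 100 or more are not given here. No shares were formed for these settings, so nothing is read from the counts of members or pathway genes. These settings change by construction which genes are counted.

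No paired analysis was possible because the table holds group means and the rebuilt pools carry no replicate number. For the same reason the edgeR and DESeq2 fits, and the fits without a labelled replicate or without replicate 4 were not run. Low reads limit socs2 and socs3a most.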
